A study of Homo sapiens with 5 samples.

Results

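The 55 protein-coding genes described here encode translation initiation factors and their close regulators, out of 20033 protein-coding genes of the RefSeq table (GRCh38.p14). They were taken by symbol (EIF1, EIF2, EIF3, EIF4, EIF5 and EIF6 with any suffix), and the rule leaves out EIF2AK2. The data were ChIP-seq peak lists of IRF3, a transcription factor activated by viral RNA sensors, and Smad3, which carries the TGF-beta signal to the genome. All libraries came from BT549, an established basal-like breast cancer cell line, infected with lentiviral vectors for stable expression of HA (the control) or of caSmad3, constitutively active Smad3. IRF3 was precipitated from HA cells and from caSmad3 cells, both transfected with polyI:C (a synthetic double-stranded RNA) and given no TGF-beta. Smad3 was precipitated from HA cells after mock transfection and from HA cells after polyI:C, both with TGF-beta at 1 ng/ml for 1.5 h, and, with polyI:C but no TGF-beta, from caSmad3 cells. Whether the anti-Smad3 antibody separates caSmad3 from the cells' own Smad3 is not given in the sources used here.

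Each of the 5 groups held 1 library, so no difference between groups could be tested, and the lists carry positions and no scores or reads. They held 4125 and 8067 IRF3 peaks in HA and caSmad3 cells, and 353, 786 and 6041 Smad3 peaks in mock-transfected HA cells, HA cells given polyI:C and caSmad3 cells. Read depth is unknown, so neither the number of peaks nor a missing peak measures an amount of binding. A gene counts below as listed when any base of a peak lay within 1 kb of either gene end. Intervals are 95% Clopper-Pearson intervals and cover counting error only. Peak lists hold no expression, so the cell type was not checked against its markers.

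Initiation factors bring the ribosome to the start codon of an mRNA. The eIF4F complex (the cap-binding eIF4E, the helicase eIF4A and the scaffold eIF4G) recruits the mRNA, eIF3 holds the small ribosomal subunit, eIF2 delivers the initiator tRNA, eIF1 and eIF1A watch over start codon choice, and eIF5 and eIF5B complete the step. Viral RNA and other stresses act on this machinery mainly through kinases that phosphorylate the alpha subunit of eIF2, which then blocks its exchange factor eIF2B. Most of the genes, though not all, are active in nearly all dividing cells.

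The promoters of 8 members are printed here. In 7 of them the 200 bases before the RefSeq transcript start were covered in part by peaks of both factors in caSmad3 cells. The other is EIF4A3, whose stretch was covered by IRF3 alone. EIF4A2, EIF4A1 and EIF4A3 are RNA helicases, EIF1 and EIF5 act in start codon choice, EIF4EBP2 encodes a repressor of eIF4E, EIF1AD a protein with an eIF1A domain, and EIF5A2 a paralogue of EIF5A. Sequences are from RefSeq (GRCh38.p14), 5′ to 3′ on the strand of the gene, and capitals mark matches to the motifs named below. The stretches lie at chr3:186783377-186783576 (plus strand), chr17:7572625-7572824 (plus), chr17:41688685-41688884 (plus), chr14:103334037-103334236 (plus), chr10:70403945-70404144 (plus), chr11:66002158-66002357 (minus), chr3:170908638-170908837 (minus) and chr17:80147129-80147328 (minus), in the order printed.
EIF4A2: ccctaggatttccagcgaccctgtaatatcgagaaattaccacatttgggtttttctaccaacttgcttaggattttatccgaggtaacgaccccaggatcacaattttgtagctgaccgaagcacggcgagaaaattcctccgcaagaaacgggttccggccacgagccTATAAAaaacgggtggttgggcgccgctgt
EIF4A1: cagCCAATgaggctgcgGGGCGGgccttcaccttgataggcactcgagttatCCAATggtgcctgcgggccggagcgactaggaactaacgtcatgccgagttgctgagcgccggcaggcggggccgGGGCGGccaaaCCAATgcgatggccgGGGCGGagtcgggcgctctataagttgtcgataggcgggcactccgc
EIF1: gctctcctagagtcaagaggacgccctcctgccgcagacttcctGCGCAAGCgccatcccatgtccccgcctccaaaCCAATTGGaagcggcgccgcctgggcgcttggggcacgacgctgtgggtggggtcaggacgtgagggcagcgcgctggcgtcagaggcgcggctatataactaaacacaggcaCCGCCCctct
EIF5: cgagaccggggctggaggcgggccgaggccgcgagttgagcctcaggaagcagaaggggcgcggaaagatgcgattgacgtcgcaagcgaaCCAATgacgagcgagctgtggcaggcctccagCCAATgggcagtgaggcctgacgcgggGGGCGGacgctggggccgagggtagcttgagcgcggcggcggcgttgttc
EIF4EBP2: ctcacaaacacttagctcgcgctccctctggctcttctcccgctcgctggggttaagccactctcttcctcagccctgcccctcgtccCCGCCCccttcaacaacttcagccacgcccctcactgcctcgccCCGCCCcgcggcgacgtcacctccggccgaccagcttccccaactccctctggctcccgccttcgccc
EIF1AD: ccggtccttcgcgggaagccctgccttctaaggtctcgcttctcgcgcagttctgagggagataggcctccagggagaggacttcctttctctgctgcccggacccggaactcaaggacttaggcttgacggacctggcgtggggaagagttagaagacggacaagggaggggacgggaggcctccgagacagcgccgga
EIF5A2: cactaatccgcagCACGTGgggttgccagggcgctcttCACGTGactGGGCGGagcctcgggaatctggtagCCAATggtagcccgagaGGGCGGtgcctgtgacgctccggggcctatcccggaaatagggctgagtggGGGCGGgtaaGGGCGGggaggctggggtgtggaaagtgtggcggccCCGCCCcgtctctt
EIF4A3: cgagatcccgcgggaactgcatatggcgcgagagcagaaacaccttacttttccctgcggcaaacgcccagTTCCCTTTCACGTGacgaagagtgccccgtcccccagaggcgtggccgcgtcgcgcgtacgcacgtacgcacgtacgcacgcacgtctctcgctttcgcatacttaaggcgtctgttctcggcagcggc

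The matches were counted for 12 motifs on both strands. The GC box (GGGCGG) was found 3 times in the EIF4A1 stretch and 5 times in that of EIF5A2, and the CCAAT box (CCAAT) 3 times in EIF4A1 and 2 times in each of EIF1 and EIF5. In EIF1 the pair overlaps, as CCAAT is read on opposite strands of the same bases. The EIF4A2 stretch held none of the motifs but a TATA box (TATAAA) from -30 to -25 relative to the start. EIF4A3 held the only match to an IRF pair of half-sites (GAAANNGAA) from -129 to -121, and it shares 1 base with an E-box (CACGTG). The EIF1AD stretch had no match to any of the 12.

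IRF3 was listed at 30 of the 55 genes in HA cells (54.5%, 40.6 to 68.0), where 17.0% of all protein-coding genes were listed. In caSmad3 cells it was 40 of 55 (72.7%, 59.0 to 83.9), against 31.1% of all genes. Smad3 was listed at 1 member in mock-transfected HA cells (1.82%, against 0.245% of all genes), at 4 in HA cells given polyI:C (7.27%, against 0.884%) and at 14 in caSmad3 cells (25.5%, 14.7 to 39.0, against 10.6%). Each of these shares lay above the background of its library, though the interval in mock-transfected cells (0.046 to 9.72) includes it. Between HA and caSmad3 cells the Smad3 libraries differ in TGF-beta as well as in caSmad3, so these cannot be told apart. No member was listed for Smad3 in HA cells without being listed in caSmad3 cells as well. In the wider 50% of each list 19 and 28 members were left for IRF3 in HA and caSmad3 cells respectively (9.27% and 19.3% of all genes), and 7 for Smad3 in caSmad3 cells (5.36%).

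**Figure D1:**
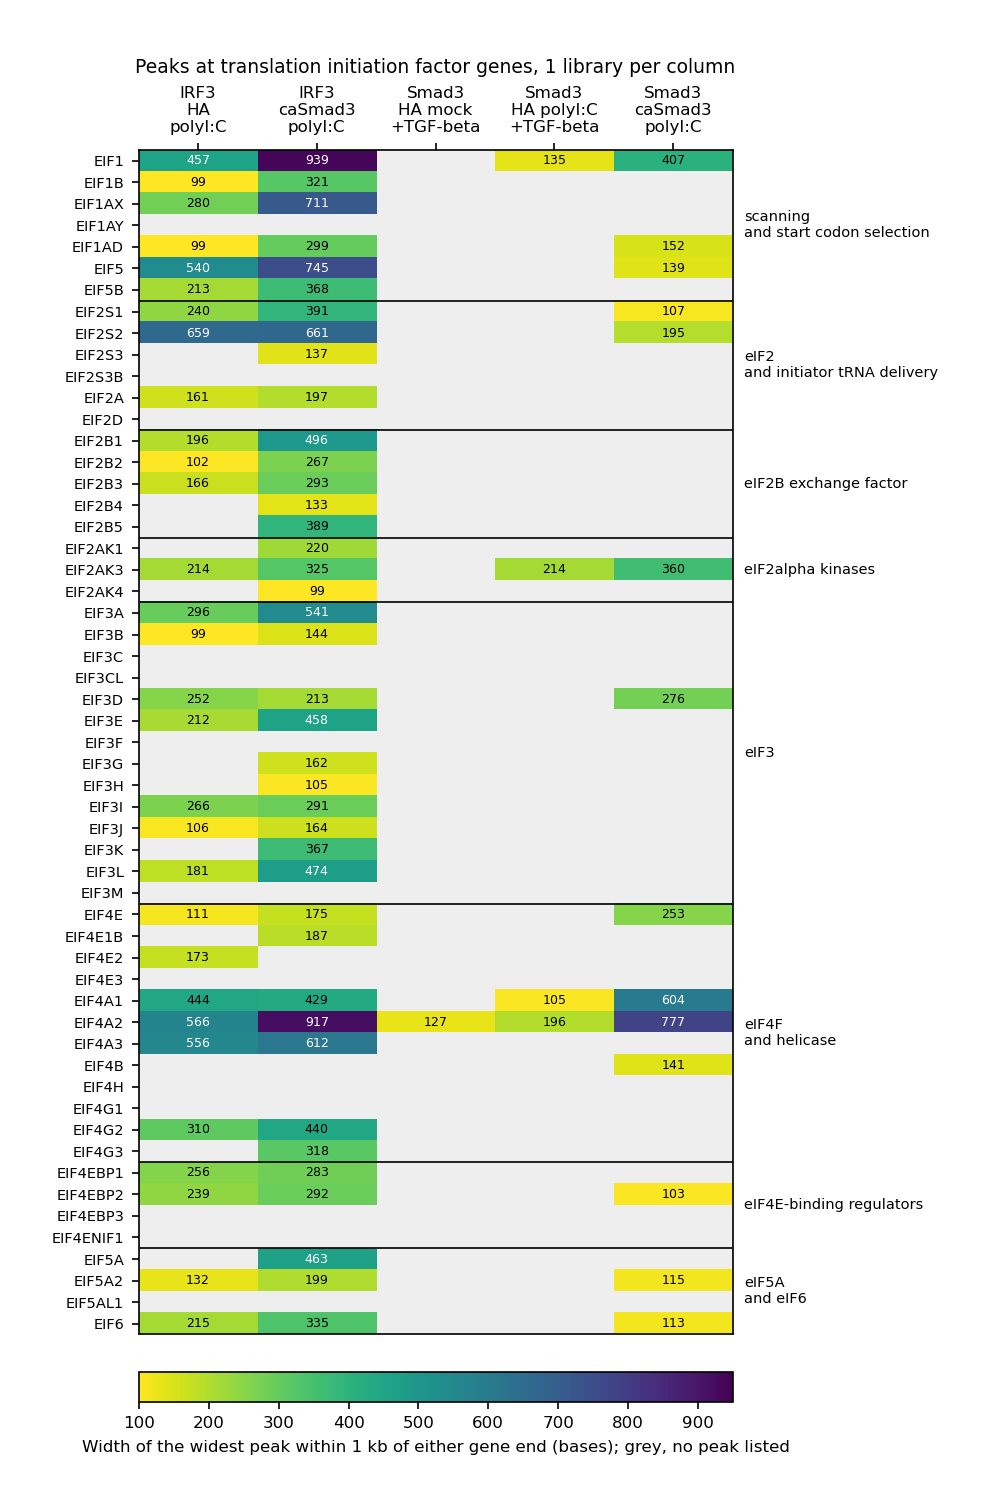
Width in bases of the widest peak within 1 kb of either gene end for each of the 55 initiation factor genes (rows, grouped by complex) in the 5 libraries (columns); grey means that no peak was listed. The 2 IRF3 columns are filled for 30 and 40 genes, and the Smad3 columns for 1, 4 and 14.

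For IRF3, 29 members were listed in both HA and caSmad3 cells (16.0% of all genes were), 11 in caSmad3 cells alone (15.1%) and 1 in HA cells alone (0.963%). A gene listed in HA cells cannot be in the second class, so its share of all members, 20.0%, is held down by the first. Of the 25 members not listed in HA cells, 11 were listed in caSmad3 cells (44.0%, 24.4 to 65.1), against 18.2% of the 16631 such genes. In the wider 50% of peaks 18 members were listed in both (32.7%), against 8.40% of all genes. The 11 were EIF2S3, EIF2B4, EIF2B5, EIF2AK1, EIF2AK4, EIF3G, EIF3H, EIF3K, EIF4E1B, EIF4G3 and EIF5A. The 1 gene of HA cells alone was EIF4E2, which encodes a cap-binding repressor. Its peak of 173 bases (chr2:232550330-232550502) lay 187 bases below the gene and overlapped the neighbouring gene TIGD1 and MIR5001. Peak by peak, 35 of the 36 IRF3 peaks at members in HA cells shared at least 1 base with an IRF3 peak of caSmad3 cells (97.2%, 85.5 to 99.9), against 89.6% of all 3120 HA peaks within 1 kb of a gene end. With 50% of both peaks in common it was 61.1%, against 51.8% of all.

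The genes of scanning and start codon choice were listed for IRF3 in 6 of 7 cases in each library, the same 6 in both. EIF1, which keeps the scanning ribosome from starting at a wrong codon, had IRF3 peaks of 108 and 457 bases in HA cells (the wider at chr17:41688679-41689135) and a single peak of 939 bases in caSmad3 cells (chr17:41688393-41689331) that covered both. The peak of 939 bases was the widest at any member, and 0.528% of IRF3 peaks at gene ends in caSmad3 cells were at least as wide. It was picked as the widest of 51 peaks, so this rank is a description and not a test. EIF5, the GTPase activator of eIF2, had 540 bases in HA cells (chr14:103333792-103334331) and 745 in caSmad3 cells (chr14:103333690-103334434). EIF1AX, the X-linked eIF1A gene, had peaks of 280 and 99 bases in HA cells and 1 of 711 in caSmad3 cells (chrX:20141629-20142339). All 3 genes thus had an IRF3 peak over the transcript start in both libraries. EIF5B, which joins the large subunit, had 213 and 368 bases, EIF1B 99 and 321, and EIF1AD 99 and 299. EIF1AY, on chromosome Y, was not listed, and whether these cells carry that chromosome was not checked.

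Of the eIF2 genes and other tRNA-delivery factors, 3 of 6 were listed for IRF3 in HA and 4 in caSmad3 cells. EIF2S2, which encodes the beta subunit, had the widest HA peak of all members, 659 bases (chr20:34111989-34112647), and 661 bases in caSmad3 cells at almost the same place (chr20:34111987-34112647). At least as wide were 1.51% and 2.43% of the gene-end IRF3 peaks of those libraries. The HA peak was picked as the widest of 36, so its rank is likewise a description. EIF2S1, the alpha subunit on which the stress kinases act, had 240 bases in HA cells, and peaks of 391 and 99 bases in caSmad3 cells. EIF2S3, the gamma subunit, had a peak of 137 bases in caSmad3 cells alone. EIF2A was listed in both, with 161 and 197 bases, through peaks that lay inside the neighbouring gene SERP1.

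The 5 subunits of eIF2B, which reloads eIF2 with GTP, were listed for IRF3 in 3 cases in HA cells and in all 5 in caSmad3 cells, and none was listed for Smad3. As 10.6% of all genes were listed for Smad3 in caSmad3 cells, none among 5 genes cannot be told from that share. The widest HA peak was at EIF2B1, 196 bases (chr12:123633747-123633942), against 496 in caSmad3 cells (chr12:123633601-123634096), both also over the neighbour GTF2H3. EIF2B2 and EIF2B3 were listed in both libraries with 102 and 166 bases in HA cells. EIF2B5, the catalytic subunit, had 389 bases in caSmad3 cells alone, and EIF2B4 had 133 and 99.

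Of the 3 eIF2alpha kinase genes counted, EIF2AK3 (PERK, of the endoplasmic reticulum stress response) was listed for IRF3 in both libraries. Its HA peak of 214 bases (chr2:88627905-88628118) lay from -654 to -441 relative to the transcript start and over the divergent transcript EIF2AK3-DT, and caSmad3 cells had a counterpart of 325 bases there and peaks of 128 and 195 bases nearer to the start. EIF2AK1 (HRI, of heme and mitochondrial stress) had 220 bases and EIF2AK4 (GCN2, of amino acid starvation) 99 bases, in caSmad3 cells alone.

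For eIF3, the largest complex, 7 of 14 genes were listed for IRF3 in HA and 10 in caSmad3 cells, and 1 for Smad3. EIF3A, the largest core subunit, had the widest HA peak, 296 bases (chr10:119080701-119080996), and 541 bases in caSmad3 cells (chr10:119080633-119081173). EIF3L had 181 and 474 bases, EIF3E 99 and 212 in HA cells against 458, EIF3I 266 and 291, EIF3J 106 in HA cells against 164 and 152, and EIF3B 99 and 144. EIF3D, the cap-binding subunit of eIF3, went the other way, with 252 bases in HA cells and peaks of 213, 179 and 116 bases in caSmad3 cells. EIF3K (367 bases), EIF3G (162) and EIF3H (105) were listed in caSmad3 cells alone. EIF3C, EIF3CL, EIF3F and EIF3M had no peak at a gene end. EIF3C and EIF3CL are near-identical copies, and how reads that fit both were placed is not given in the sources used here.

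Of 12 genes of eIF4F and the helicases, 6 were listed for IRF3 in HA and 7 in caSmad3 cells. EIF4A2 had peaks of 566 bases over the start (chr3:186783318-186783883) and 255 bases before it in HA cells, and 1 peak of 917 bases across both places in caSmad3 cells (chr3:186782952-186783868). EIF4A1 had 444 bases in HA cells (chr17:7572657-7573100) and 429 in caSmad3 cells (chr17:7572665-7573093), both within 1 kb of an end of SENP3. EIF4A3, the helicase of the exon junction complex, had 556 bases (chr17:80146994-80147549) and 612 (chr17:80146868-80147479). All 3 helicase genes thus had an IRF3 peak of at least 429 bases across the start in both libraries. The scaffold genes differed: EIF4G2 had 310 and 440 bases, EIF4G3 318 bases in caSmad3 cells alone, and EIF4G1 had none. EIF4E had 111 bases in HA cells, and 175 and 99 in caSmad3 cells. The helicase cofactor genes EIF4B and EIF4H had no IRF3 peak. EIF4E1B was listed in caSmad3 cells only through a peak of 187 bases that also lay within 1 kb of TSPAN17, at the end of the gene opposite to its start.

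Among the eIF4E-binding regulators, EIF4EBP2 was listed for IRF3 in both libraries (239 bases at chr10:70404074-70404312 in HA cells, 292 at chr10:70403968-70404259 in caSmad3 cells). EIF4EBP1, the repressor of eIF4E controlled by mTORC1, had 2 peaks in each (256 and 159 bases in HA cells, 281 and 283 in caSmad3 cells), on either side of the lower gene end. Those of HA cells lay at chr8:38030555-38030810 and chr8:38030188-38030346, those of caSmad3 cells at chr8:38030571-38030851 and chr8:38030166-38030448. EIF4EBP3 and EIF4ENIF1 had none. EIF6, which keeps the large subunit from joining too early, had an IRF3 peak over its start in both (215 bases at chr20:35284665-35284879 and 335 at chr20:35284636-35284970). EIF5A2 had 132 and 199 bases. EIF5A, whose protein relieves stalled ribosomes, had 463 bases in caSmad3 cells alone.

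Smad3 in HA cells was listed at 4 members, EIF4A2, EIF4A1, EIF1 and EIF2AK3, and all 4 were also listed for Smad3 in caSmad3 cells and for IRF3 in both libraries. Peak by peak, 4 of their 7 Smad3 peaks in HA cells given polyI:C shared a base with an IRF3 peak of HA cells (57.1%, 18.4 to 90.1). Among all 171 such peaks at gene ends it was 64.9%, so the members' share was not above that of gene ends in general. EIF4A2 was the only member with a Smad3 peak in mock-transfected cells, 127 bases over the start (chr3:186783540-186783666). After polyI:C it had peaks of 196 bases at the same place (chr3:186783489-186783684), 102 bases before it and 133 bases beyond the far end of the gene, inside RFC4. In caSmad3 cells the Smad3 peak over the start was 777 bases wide (chr3:186783103-186783879), and 240 bases were listed at the RFC4 position (chr3:186790347-186790586). EIF4A2 was thus listed in all 5 libraries, the only member to be so.

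EIF4A1 had a Smad3 peak of 105 bases, from -156 to -52 relative to the start, in HA cells given polyI:C (chr17:7572669-7572773), and 604 bases in caSmad3 cells (chr17:7572448-7573051), where a further 106 bases lay past the other end of the gene, in CD68. EIF1 had Smad3 peaks of 120 and 135 bases in HA cells given polyI:C (chr17:41688880-41688999 and chr17:41689428-41689562) and 407 and 332 bases at the same places in caSmad3 cells (chr17:41688789-41689195 and chr17:41689297-41689628). The second of each pair began 543 and 412 bases past the start. EIF2AK3 had 214 bases in HA cells given polyI:C (chr2:88627521-88627734) and 360 in caSmad3 cells (chr2:88627420-88627779). Neither overlapped the IRF3 peak of HA cells, which lay further from the start, whereas both overlapped the IRF3 peak of 128 bases of caSmad3 cells. All 7 Smad3 peaks at members in HA cells given polyI:C shared a base with a Smad3 peak of caSmad3 cells (59.0 to 100), against 91.2% of the 171 such peaks at all gene ends.

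**Figure D2:**
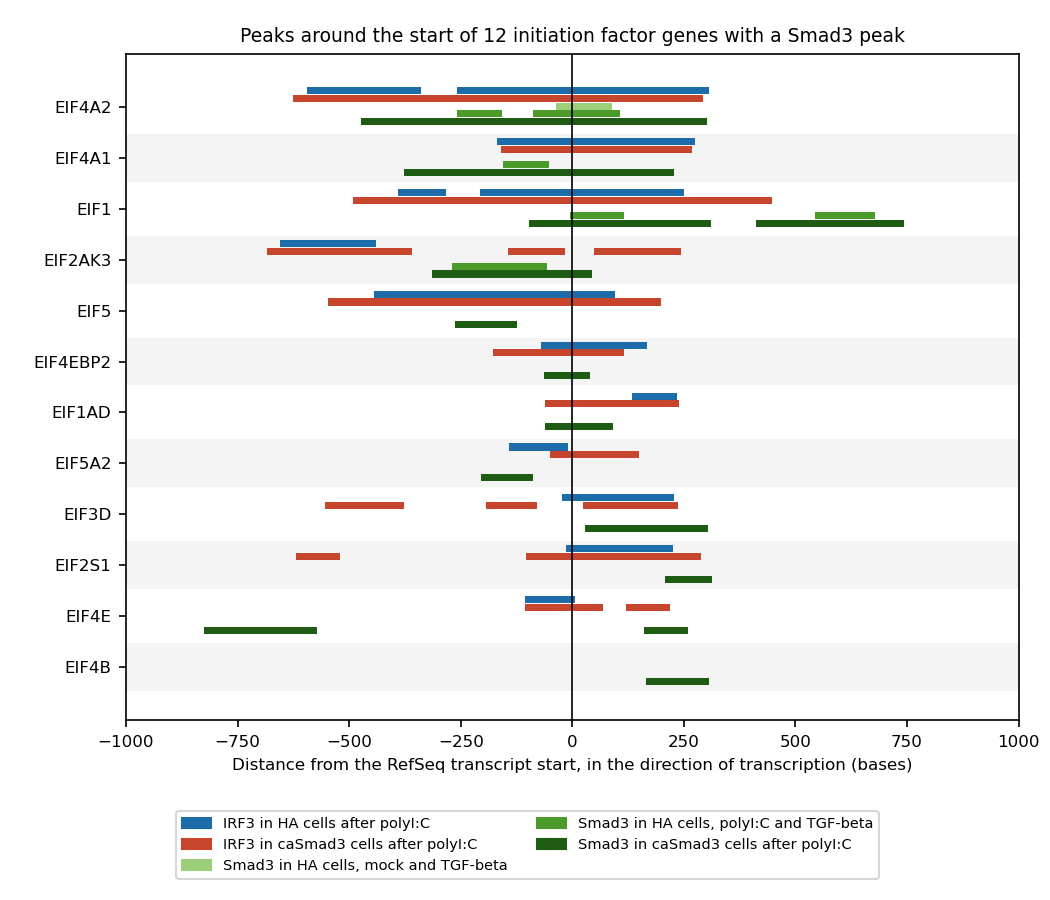
Extent of each listed peak from 1000 bases before to 1000 bases after the RefSeq transcript start (vertical line), in the direction of transcription, for 12 members with a Smad3 peak near the start; each coloured bar is 1 peak of 1 library. At EIF4A2, EIF4A1 and EIF1 the bars of both factors cover the start, at EIF2AK3 the Smad3 bars overlap the IRF3 bar of 128 bases of caSmad3 cells and not that of HA cells, and EIF4B has a Smad3 bar alone.

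In caSmad3 cells, 13 of the 14 members with a Smad3 peak also had an IRF3 peak (8.95% of all genes had both), and 1 had Smad3 without IRF3 (1.64%). As a share of the genes listed for Smad3 this was 92.9% of members (66.1 to 99.8) and 84.5% of all 2121 such genes, so the members' share was near that of Smad3-listed genes in general. In the wider 50% of peaks both factors were listed at 5 members (9.09%), against 3.89% of all genes. The member without IRF3 was EIF4B, with 141 bases, 166 to 306 bases past the start (chr12:53006622-53006762). EIF2S2 had 195 bases (chr20:34112152-34112346), inside its IRF3 peak. EIF3D had 276 bases (chr22:36528862-36529137), the widest Smad3 peak outside the 4 genes also listed in HA cells. EIF4E had peaks of 99 bases (chr4:98928875-98928973), which overlapped an IRF3 peak, and 253 bases (chr4:98929706-98929958), from -825 to -573 relative to the start, which did not. EIF5 (139 bases, chr14:103333975-103334113), EIF1AD (152 bases, chr11:66002066-66002217), EIF4EBP2 (103 bases, chr10:70404081-70404183), EIF2S1 (107 bases, chr14:67360535-67360641) and EIF5A2 (115 bases, chr3:170908727-170908841) had 1 peak each. The EIF5A2 peak overlapped the IRF3 peak of HA cells and not that of caSmad3 cells. EIF6 counted through 113 bases at the end opposite to its start (chr20:35277992-35278104), in MMP24OS.

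Of the 18 Smad3 peaks at members in caSmad3 cells, 13 shared a base with an IRF3 peak of the same cells (72.2%, 46.5 to 90.3), against 69.8% of the 2036 Smad3 peaks at all gene ends. The members' share was therefore near that of gene ends in general. With 50% of both peaks in common it was 27.8%, against 23.8%. From the other side, 12 of 51 IRF3 peaks at members overlapped a Smad3 peak (23.5%), against 21.9% at all gene ends.

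Where a member was listed for IRF3 in both cell types, the widest peak was wider in caSmad3 cells at 27 of 29 genes (93.1%), with a median of 215 bases in HA and 335 in caSmad3 cells. The exceptions were EIF4A1 and EIF3D. The median ratio was 1.56, from 0.845 at EIF3D to 3.24 at EIF1B. Over all 3209 genes listed in both, 84.5% had the wider peak in caSmad3 cells, with medians of 205 and 348 bases and a median ratio of 1.51. The caSmad3 list was also the longer, and the part of depth in these widths was not tested.

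**Figure D3:**
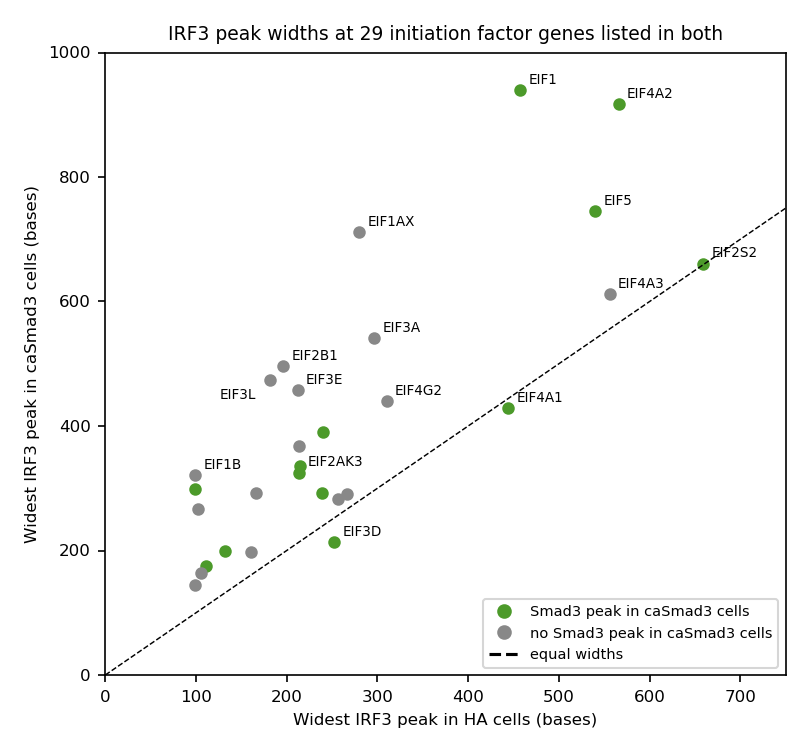
Widest IRF3 peak in HA cells (horizontal, bases) against that in caSmad3 cells (vertical, bases) for the 29 members listed in both; each point is 1 gene, green where a Smad3 peak was listed in caSmad3 cells, and the dashed line marks equal widths. All but EIF4A1 and EIF3D lie above the line, and EIF2S2 lies almost on it.

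Most members with a peak had one near the transcript start, as did most other listed genes. RefSeq promoter windows of 300 bases (250 before the start and 50 from it on) were matched for 46 of the 55 members. Of the members listed for IRF3 in HA cells, 25 had a start in this table, and all 25 had a peak within 1 kb of it, against 95.5% of all listed genes with a start. In caSmad3 cells it was 31 of 32 (96.9%, against 95.7%), EIF4E1B being the exception, and for Smad3 in caSmad3 cells 12 of 13 (92.3%, against 91.3%), with EIF6 the exception. Some members had further peaks at the opposite end: EIF4A2 and EIF4A1 for Smad3, and EIF6 for IRF3 in both libraries. Of the 17 Smad3 peaks of caSmad3 cells at members with a start in the table, 14 lay within 1 kb of it. Other protein-coding genes often share the place: 11 of the 36 IRF3 peaks in HA cells and 17 of the 51 in caSmad3 cells also lay within 1 kb of an end of another protein-coding gene, such as SNX8 at EIF3B, TMEM234 at EIF3I and ANKRD54 at EIF3L. Such peaks cannot be assigned to 1 of the genes. Among the 32 members with no such neighbour, 16 were listed for IRF3 in HA and 21 in caSmad3 cells (50.0% and 65.6%), against 12.7% and 24.0% of all genes without one.

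The promoters of the members were rich in CpG. An observed-to-expected CpG ratio of at least 0.6 was found for 45 of the 46 (97.8%), against 70.3% of 15842 protein-coding genes in the table. Of all genes with such promoters, 24.1% were listed for IRF3 in HA cells, 44.1% in caSmad3 cells and 14.7% for Smad3 in caSmad3 cells, and of all genes under that ratio 3.46%, 6.79% and 2.72%. The members with a ratio of at least 0.6 stood at 55.6%, 71.1% and 28.9%. The part of CpG content in the members' counts was not tested.

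An ETS motif (CCGGAAG) was held by 13 of the 46 member windows (28.3%, against 16.5% of all). Of these 13 genes, 10 (76.9%) were listed for IRF3 in each cell type. In HA and caSmad3 cells respectively, 31.4% and 58.1% of all genes with the motif were listed, and 54.5% and 72.7% of all 55 members. The IRF pair of half-sites was held by 8 (17.4%, against 9.22%). Of these 8, 3 were listed for IRF3 in HA and 5 in caSmad3 cells (37.5% and 62.5%). Among all genes with the motif the shares were 19.3% and 29.6%, and among all 55 members 54.5% and 72.7%. The Smad half-site with a flank (CAGACA) was held by 4 (8.70%, against 19.1%). Of these 4, 2 (EIF4A1 and EIF4A2) were listed for Smad3 in caSmad3 cells, where 8.96% of all genes with the motif were. Without regard to the motif, 25.5% of the 55 members and 10.6% of all genes were so listed. The Smad palindrome (GTCTAGAC) was held by 0, against 0.297% of all. GC boxes were held by 34 (73.9%, against 64.3%), CCAAT boxes by 20 (43.5%, against 42.1%) and E-boxes by 11 (23.9%, against 10.9%). The NRF1 core (GCNTGCGC) was held by 12 (26.1%, against 19.5%), the YY1 core (AAGATGGCG) by 3 (6.52%, against 3.21%), the AP-1 motif (TGANTCA) by 5 (10.9%, against 8.04%), the CRE (TGACGTCA) by 0 (3.0% of all) and the TATA box by 2 (4.35%, against 12.4%). A match to such letters is a description of the window and not a site of binding.

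Genes that host a snoRNA, a small RNA that guides changes to ribosomal RNA, are frequent in this machinery: 7 of the 55 members (12.7%) had a snoRNA gene inside, against 2.63% of all genes. These were EIF4A1, EIF4A2, EIF4G1, EIF4G2, EIF3A, EIF5 and EIF2AK4. All but EIF4G1 were listed for IRF3 in caSmad3 cells, and EIF4A1, EIF4A2 and EIF5 for Smad3. Among all host genes 46.0% were listed for IRF3 in caSmad3 cells and 19.4% for Smad3. Of the 48 members with no snoRNA gene inside, 34 (70.8%) were listed for IRF3 in caSmad3 cells and 11 (22.9%) for Smad3. The part of snoRNA genes in these counts was not tested.

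Other genes of translation and its control were also counted in the IRF3 libraries of HA and caSmad3 cells and the Smad3 library of caSmad3 cells, where 17.0%, 31.1% and 10.6% of all genes were listed. A group of 23 genes, called elongation and termination factors here, is broader than its name. It also takes in mitochondrial initiation factors, factors of ribosome recycling and re-initiation, and enzymes that modify eIF5A. Of the 23, 11 (47.8%), 18 (78.3%) and 8 (34.8%) were listed in those 3 libraries. EEF1A1 and EEF2, the main elongation factors, EEF1D, MCTS1 and DHPS were listed in all 3, EEFSEC in both caSmad3 libraries, and ABCE1, which recycles ribosomes, had a Smad3 peak in HA cells given polyI:C. DOHH, an enzyme of the hypusine residue of eIF5A, was listed for IRF3 in HA cells alone. Of 21 mRNA-binding partners of initiation the counts were 9 (42.9%), 14 (66.7%) and 3 (14.3%), with PABPC1, DDX3X and YBX1 listed for Smad3 and PDCD4, an inhibitor of eIF4A, for IRF3 in HA cells alone. Of 22 genes of mTORC1 and MNK signalling they were 10 (45.5%), 17 (77.3%) and 9 (40.9%). RPS6 was listed in all 3 Smad3 libraries, and the other 8 Smad3 genes of caSmad3 cells included MTOR, RPTOR, RHEB, TSC1, AKT1S1, RRAGA and LAMTOR1. The Smad3 share thus ran from 14.3% to 40.9% over these lists and the next.

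Of 23 genes of the integrated stress response, the programme set off by eIF2alpha phosphorylation, 10 (43.5%), 15 (65.2%) and 7 (30.4%) were listed in the same 3 libraries. ATF4, its central transcription factor, was listed for IRF3 in both cell types. PPP1R15A and PPP1R15B, subunits of the phosphatases that reverse the mark, and DDIT3, DDIT4 and NCK1 were listed for IRF3 in both and for Smad3 in caSmad3 cells. IMPACT was listed for both factors in caSmad3 cells alone, and PSAT1 also for Smad3 in HA cells given polyI:C. No peak was listed at 8 of the 23 (34.8%, against 66.3% of all genes).

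Cytosolic ribosomal protein genes, the other side of the same machinery, were listed more often than initiation factors, with 69 of 77 for IRF3 in HA cells, all 77 in caSmad3 cells and 51 for Smad3 in caSmad3 cells. Mitochondrial ribosomal protein genes gave 38, 61 and 21 of 77, and proteasome subunit genes 17, 30 and 10 of 39. The differences between all these lists were not tested.

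**Figure D4:**
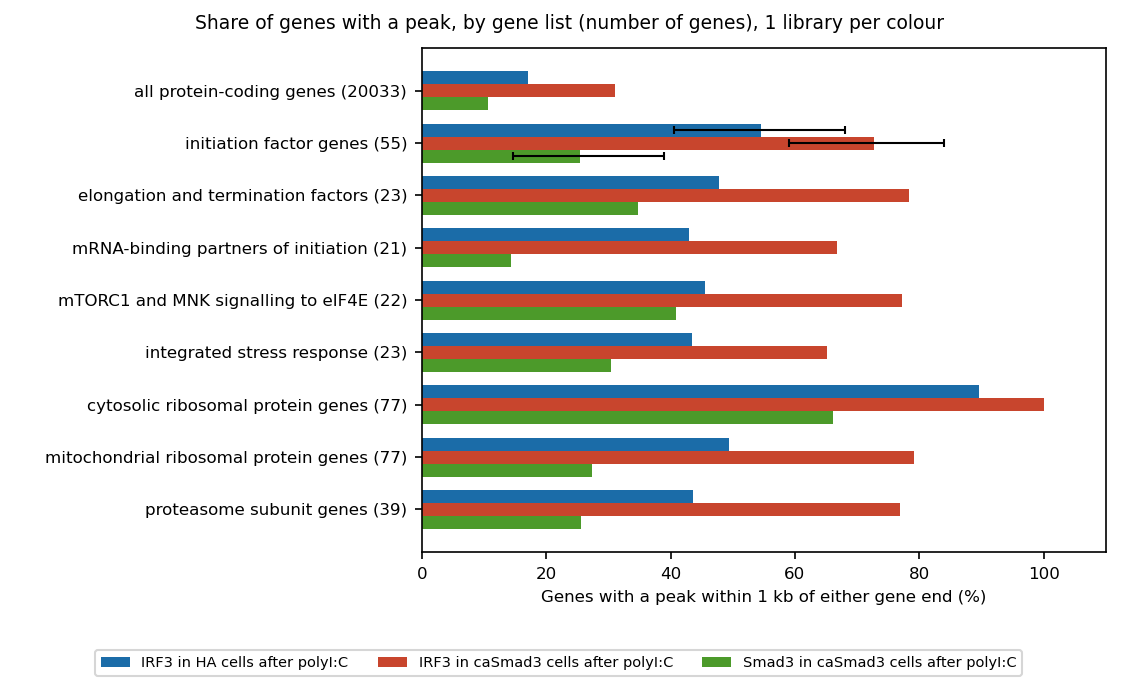
Percentage of genes with a peak within 1 kb of either gene end (horizontal) for all protein-coding genes, the 55 initiation factor genes and 7 other lists (number of genes in brackets), in the IRF3 libraries of HA and caSmad3 cells and the Smad3 library of caSmad3 cells; error bars are 95% Clopper-Pearson intervals for the initiation factor genes. Cytosolic ribosomal protein genes reach 89.6%, 100% and 66.2%, and the initiation factor genes 54.5%, 72.7% and 25.5%.

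For 13 members (23.6%) none of the 5 libraries listed a peak at a gene end, against 66.3% of all. They were EIF1AY, EIF2D, EIF2S3B, EIF3C, EIF3CL, EIF3F, EIF3M, EIF4E3, EIF4G1, EIF4H, EIF4EBP3, EIF4ENIF1 and EIF5AL1. The nearest peaks of the IRF3 lists were 15542 and 15162 bases away at EIF4G1, 57248 and 57180 at EIF4H, 22866 and 22788 at EIF2D and 7703 and 7647 at EIF4EBP3. At EIF3F they were 680671 and 680549 bases away. EIF2S3B and EIF5AL1 are relatives of EIF2S3 and EIF5A. Members of 1 complex thus differed, with EIF4A1 listed in 4 libraries and its partner EIF4G1 in none.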

How the data were processed

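The authors deposited a BED file of peaks per library (5 in all) holding chromosome, start, end and name, and no score, fold, p-value or read count. The submitters' processing notes name hg38, Bowtie2 2.2.2.6 and MACS2 2.1.0. The sources used here do not give peak thresholds, control libraries or the treatment of duplicates. Starts were converted to 1-based positions. Protein-coding genes, their ends and promoter windows came from RefSeq tables (GRCh38.p14, the assembly that hg38 names). A peak was assigned to every gene with an end within 1000 bases of any of its bases, and peaks were shared with at least 1 base in common. The assignment was tested on simulated data with planted peaks. Each group held 1 library, so counts are given beside the same share of all protein-coding genes and no test was run. Groups came from the sample descriptions. Depth is unknown. The 55 members, 4 pathway lists (89 genes) and 12 motifs were chosen with earlier results of these data known. The ribosomal and proteasome lists, by symbol, and the comparisons by snoRNA host and neighbouring gene were added after the values were seen. Promoters are printed for members with peaks of both factors in the window and for EIF4A3, among those with the widest IRF3 peaks. EIF2AK3, whose gene extends beyond the start, and EIF3D, whose Smad3 peak lies past the start, met that rule and are not printed, nor is EIF1AX, which has a wide IRF3 peak in caSmad3 cells. EIF2S2, with the widest IRF3 peak of HA cells, had no start among the promoter windows and could not be printed. Peak positions are given for members with a Smad3 peak, those listed for IRF3 in HA cells alone, the 5 with the widest IRF3 peak in each library and the one with the widest HA peak in each complex. Genes of the pathway lists are named, at most 8 per list, from those with a Smad3 peak or an IRF3 peak in HA cells alone. ATF4 was named after its values were seen. Alternatives were windows of 500 and 5000 bases, peak centres, transcript starts, the wider 50% of peaks, 50% overlap of both peaks and a CpG ratio of 0.75. Python 3.11.15, pandas 2.3.3, numpy 2.4.6, scipy 1.17.1 and matplotlib 3.10.9 were used.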

Additional observations from a re-analysis of the deposited data

How the results depend on the processing

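Of 45 alternative values for 11 results, 36 stayed within 1.5 times the count, or within the interval of the share, and 9 did not. Windows of 500 and 5000 bases, peak centres and transcript starts moved none of the counts by more than 1.5 times. Keeping the wider 50% of peaks, which removes peaks by construction, lowered the members listed for IRF3 in HA cells to 19, for Smad3 to 0 after mock transfection, to 2 after polyI:C with TGF-beta and to 7 with caSmad3, for IRF3 in both cell types to 18 (8.40% of all genes), and for both factors in caSmad3 cells to 5 (3.89%). The shares of all genes fell as well, to 9.27% for IRF3 in HA cells and 5.36% for Smad3 in caSmad3 cells. Requiring 50% of both peaks in common gave 61.1% in place of 97.2% for IRF3 peaks of HA cells and 27.8% in place of 72.2% for Smad3 peaks of caSmad3 cells. A CpG ratio of 0.75 gave 82.6% of member promoters in place of 97.8%. No paired analysis was possible because each group holds 1 library. Depth is unknown, so a missing peak may reflect few reads, and with 1 library per group no replicate could be left out in turn.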

Other observations

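Several members counted above as not listed at a gene end had IRF3 peaks inside the gene. EIF3C and its near-identical copy EIF3CL each had 1 in both IRF3 libraries, in EIF3CL 272 bases in HA cells (chr16:28403623-28403894) and 456 in caSmad3 cells (chr16:28403620-28404075), and in EIF3C 144 bases (chr16:28711444-28711587) and 463 (chr16:28711262-28711724). They lay 24042 and 24039 bases from the lower end in EIF3CL and 22886 and 22704 in EIF3C. EIF3C also had a Smad3 peak of 129 bases in caSmad3 cells, 4825 bases from that end. EIF3H, counted in caSmad3 cells through 105 bases at its upper end, had a wider IRF3 peak inside the gene in both libraries, 362 and 368 bases, 10406 and 10397 bases from that end. EIF4ENIF1, the eIF4E transporter gene, had an IRF3 peak of 120 bases in caSmad3 cells, 3345 bases from its upper end but 262 bases from the transcript start in the RefSeq promoter table. Counts by gene end thus leave out peaks at starts that lie inside the outermost gene span, here for EIF4ENIF1. Whether the peaks inside EIF3C, EIF3CL and EIF3H lie at starts of shorter transcripts was not tested.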
